A study of Mus musculus with 11 samples.

Results

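Cd4, Lag3, Cd8a and Cd8b1 are 4 genes of mouse chromosome 6 that lie in 2 groups. Cd4 and Lag3 are neighbours, and so are Cd8b1 and Cd8a. They were followed in 2 windows of 700 kb given by position on build mm9. The windows, chosen with earlier results of these data known, were chr6:124500001-125200000 (the Cd4 window, with Cd4 and Lag3) and chr6:71000001-71700000 (the Cd8 window, with Cd8a and Cd8b1). These are 2 of the 3758 windows of that length that lie side by side on chromosomes 1 to 19 and X. The 4 genes are all the members, and each is read only through its window or a bin at its stated position, since a contact map resolves regions and not single genes.

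CD4 and CD8 are the coreceptors of the T cell receptor. CD4 binds MHC class II and marks helper T cells, whereas CD8, a dimer made of the Cd8a and Cd8b1 products, binds MHC class I and marks cytotoxic T cells. Thymocytes pass through a stage with both coreceptors and then keep one of them, and in mature helper cells the Cd8 genes are silenced while Cd4 stays active. LAG3 is an inhibitory receptor that also binds MHC class II and appears on activated T cells. Active genes tend to lie in one of the large contact classes of the genome, called compartments, and inside contact domains that are bounded by insulating borders.

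The maps came from Th1 cells, which are helper T cells, of spleens of male C57BL/6 mice. Spleen cells had been given 1 µg/ml anti-CD3 for 3 days, selected with anti-CD4 beads and expanded with 20 ng/ml IL-2, and all maps share this treatment. Hi-C was made from 9 single cells cut with Bgl II, 1 single cell (cell 8) cut with Dpn II and 1 population sample (the ensemble) cut with Bgl II, and the authors also deposited a pool of single-cell contacts. The labels name no separate animals or cultures, so a p-value over cells measures only the spread between these cells, which may be technical. Expression was not measured in these maps, so the activity of Cd4 and the silence of Cd8a and Cd8b1 are background and were not checked here.

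Contacts numbered from 11156 to 30665 in each of the Bgl II cells. Cell 8 had 12225, and the larger maps had 2294791 (pool) and 51834382 (ensemble). Of the pool's contacts 174955 (7.62%) were those of the 9 Bgl II cells, and the other 2119836, called the remaining pool below, were used where the pool is set beside the cells. Contacts between chromosomes (trans contacts) made up 50.7% of the ensemble and 6.96% to 25.9% of the Bgl II cells, so shares are compared between the windows within a map and not between maps. In the ensemble the Cd4 window held 55870 contact ends on 466 restriction fragment ends, and the Cd8 window 36394 contact ends on 387 fragment ends. In the remaining pool the windows held 1473 and 1320 contact ends, and in the 9 cells summed 117 and 110.

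In the mouse gene order of RefSeq (GRCm38.p6, used for names and order alone), Cd4 and Lag3 stand between Cdca3, Gnb3, P3h3 and Gpr162 on one side and Ptms, Mlf2, Cops7a and Pianp on the other. Gnb3 encodes a G protein subunit, and Cops7a a subunit of the COP9 signalosome. Cd8b1 and Cd8a stand between Fabp1, Smyd1, Krcc1 and Gm1070 and the genes Rmnd5a, Rnf103, Chmp3 and Kdm3a. Fabp1 encodes the liver fatty acid binding protein, and Kdm3a a histone demethylase. Values below are for whole windows, which these neighbours share with the coreceptor genes.

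One promoter of the 4 genes could be printed from the RefSeq promoter table, that of Cd8a, the gene of the chain present in every CD8 dimer. It is shown because it is the silenced promoter of the contrast and because contacts can be read only at restriction sites. The sequence is chr6:71373177-71373476 of GRCm38.p6, plus strand, with 250 bases before and 50 after the annotated start. Capitals mark E-boxes (CANNTG, a palindrome and so the same on both strands), the motif of basic helix-loop-helix proteins.
Cd8a promoter: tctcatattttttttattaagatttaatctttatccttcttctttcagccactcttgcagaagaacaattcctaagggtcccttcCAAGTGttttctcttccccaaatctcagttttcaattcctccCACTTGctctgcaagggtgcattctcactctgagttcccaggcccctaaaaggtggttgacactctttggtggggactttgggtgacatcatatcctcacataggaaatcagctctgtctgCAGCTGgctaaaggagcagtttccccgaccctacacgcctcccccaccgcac
It holds 3 E-boxes, a motif found in 72.3% of the 32851 mouse promoters of the table. The RUNX core TGTGGT (searched on both strands, found in 16.8% of promoters) and the Bgl II site AGATCT (found in 7.37%) are not in this window. The contacts of the Cd8a start were therefore read from fragment ends outside these 300 bases. The promoter holds 3 CpG, against a median of 7 over all promoters, and 23.3% of promoters hold fewer.

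The first question was whether the active and the silenced coreceptor lie in different compartments, and in the ensemble both lay in the same one. Compartments were called by whether a bin is positive or negative on the leading eigenvector of the correlated contacts, and class 1 is the side with more Bgl II fragment ends. In 1 Mb bins the bin of Cd4 and Lag3 had an eigenvector value of 0.0984 and ranked at place 23 of 146 bins of chromosome 6. The bin of Cd8a and Cd8b1 had 0.103 and ranked at place 20. Class 1 took 38.4% of the bins of chromosome 6 (56 of 146) and 36.5% of all autosomal bins, so that a call shared by both windows is not rare by itself.

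At a finer scale the order turned. In 250 kb bins the bin of the Cd4 genes had 0.0735 (percentile 93.8 of 574 bins) and that of the Cd8 genes 0.0622 (percentile 88.1), and 38.9% of bins were in class 1. The values across the Cd4 window were 0.0667, 0.0735 and 0.0764. Those across the Cd8 window were 0.0421, 0.0622 and 0.0717, lowest at the left end of the window. With 1 ensemble map these differences have no replicate check.

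The windows differed in what surrounds them. The Cd4 genes lay in an uninterrupted class 1 run of 1.5 Mb (chr6:124250001-125750000), flanked by bins of -0.0280 and -0.0436. The Cd8 genes lay near the start of a class 1 run of 2.5 Mb (chr6:70750001-73250000), flanked by bins of -0.00272 and -0.0432. Outside these runs and within 10 Mb of the gene bin, 17 of 36 bins to the left and 17 of 31 to the right of Cd4 were in class 1, against 4 of 35 to the left and 0 of 32 to the right of Cd8.

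**Figure D1:**
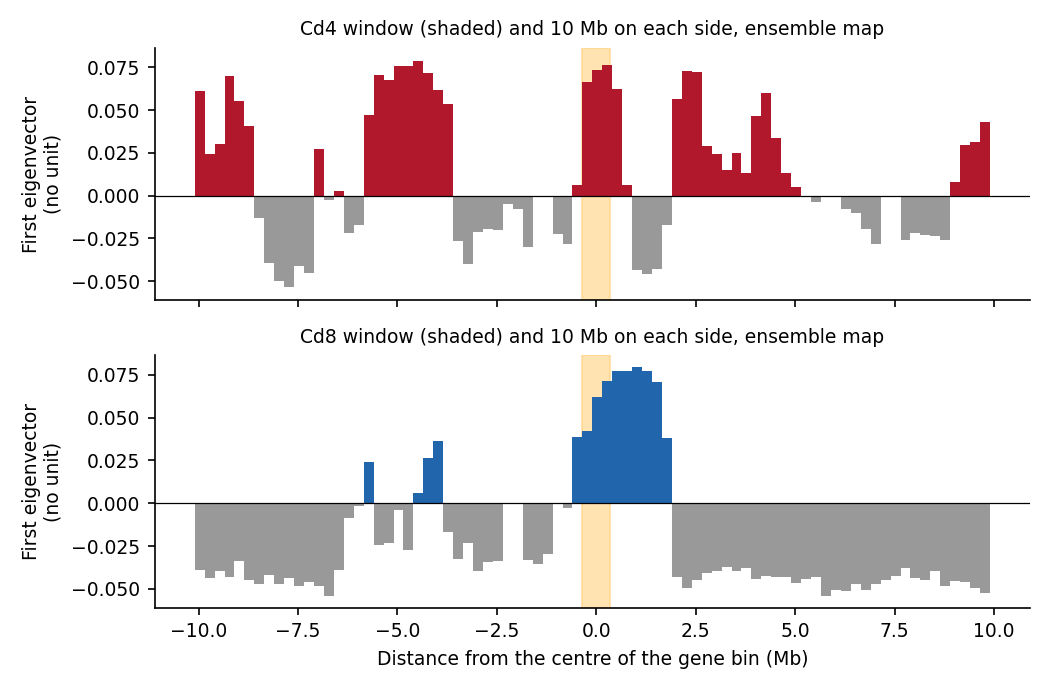
First eigenvector (no unit) of the ensemble in 250 kb bins against distance in Mb from the centre of the gene bin, for the Cd4 region (upper panel) and the Cd8 region (lower panel); coloured bars are class 1, grey bars class 2, shading marks the 700 kb window, and gaps are bins left out for low totals. The Cd4 window sits in a class 1 run of 1.5 Mb with further class 1 runs nearby, and the Cd8 window near the left end of a run of 2.5 Mb between long stretches of class 2.

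With the main insulation window of 500 kb, the domain borders around the windows differed in depth. Insulation is the log2 of contacts crossing a position over the mean of chromosome 6, and its minima are called borders, with a prominence that measures their depth. The Cd4 genes lay in a domain of 1150 kb (124500000 to 125650000), and its borders had prominences of 1.71 and 1.06, at percentiles 95.4 and 87.0 of 3589 borders of all chromosomes. The Cd8 genes lay in a domain of 850 kb (70950000 to 71800000) with prominences of 0.227 and 0.118, at percentiles 37.7 and 8.48. No insulation value was available from -1.5 to -0.55 Mb of the Cd8 gene bin and from -1.5 to -0.85 Mb of the Cd4 gene bin. These gaps were filled by interpolation, and the left prominences of both domains were measured across them. The median domain was 650 kb long and the median prominence 0.329, and 7.38% of the positions tested on chromosome 6 were borders (206 of 2791).

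At the left and right borders insulation was -0.909 and -0.989 around Cd4, against -0.221 and 0.471 around Cd8. Inside the gene bin it was 0.713 for Cd4 and Lag3 and 0.205 for Cd8a and Cd8b1. The right border of the Cd8 domain thus still had more crossing contacts than the chromosome's mean. The Cd8 domain depended on the setting. With a 1 Mb insulation window it was 5550 kb long, against 1200 kb for the Cd4 domain, and with a 250 kb window 350 kb, against 1350 kb. The order of depth depended on it too. With the 1 Mb window the left and right prominences were 1.22 and 2.57 for Cd8, and 1.15 and 2.17 for Cd4. With the 250 kb window they were 0.580 and 0.205 for Cd8, and 0.277 and 0.778 for Cd4. With bins of 25 and 100 kb and without balancing the Cd4 prominences were the larger on both sides.

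**Figure D2:**
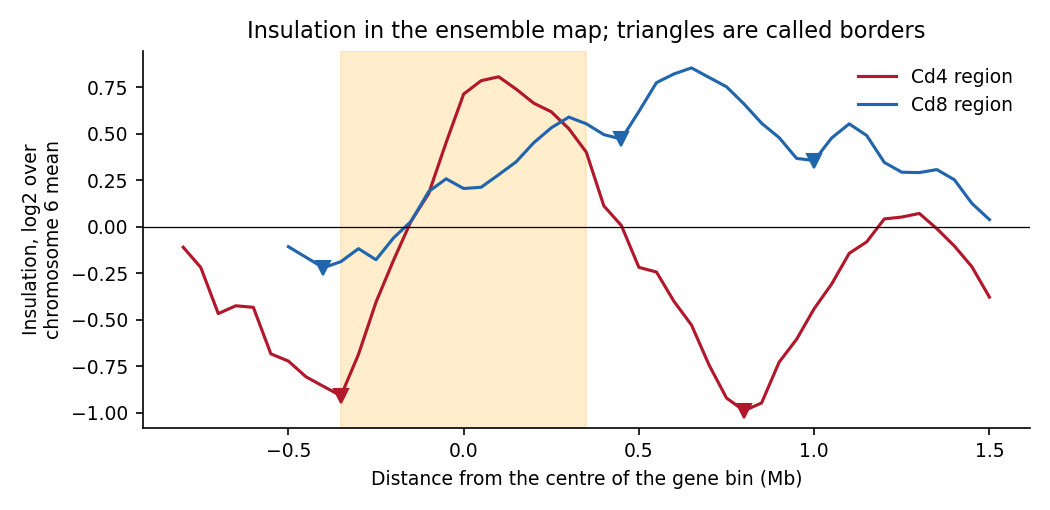
Insulation (log2 over the mean of chromosome 6, 50 kb bins, ensemble) against distance in Mb from the centre of the gene bin for the Cd4 region and the Cd8 region. Triangles are called borders, shading marks the 700 kb window, and positions without a value are not drawn. The Cd4 curve falls to -0.909 and -0.989 on its sides, whereas the Cd8 curve has shallow minima at -0.221 and 0.471 and lies at 0.854 at its highest, to the right of the window.

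Contacts within the windows followed the same contrast. Between 20 kb and 700 kb the ensemble held 4362 contacts inside the Cd4 window, against 1803 expected from distance and bin totals, an observed over expected ratio of 2.42 (95% Poisson interval 2.35 to 2.49). The Cd8 window held 1364, against 1176 expected, a ratio of 1.16 (1.10 to 1.22). Of 1412 overlapping windows of chromosome 6, whose median ratio was 0.914, the Cd4 window stood at percentile 99.96 and the Cd8 window at 75.5.

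The remaining pool, which holds none of the contacts of the 9 cells, gave the same order. The Cd4 window held 195 contacts for 100.8 expected, a ratio of 1.93 (1.67 to 2.23; percentile 99.9). The Cd8 window held 117 for 111.1 expected, a ratio of 1.05 (0.871 to 1.26; percentile 66.2). The 2 intervals do not overlap, but like those of the ensemble they cover counting error alone, since contacts of 1 map are not independent. In the 9 cells summed, 13 contacts lay inside the Cd4 window and 9 inside the Cd8 window, too few to tell the windows apart.

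The excess inside the Cd4 window was present at every distance examined. In the ensemble it was 2.73 between bins 50 to 100 kb apart, 2.42 at 150 to 250 kb and 1.80 at 300 to 650 kb. In the Cd8 window the ratios were 1.20, 1.20 and 1.07. The Cd4 window also had more ensemble contact ends for its number of fragment ends, 11989 per 100 (percentile 97.6 of 1460 windows of chromosome 6), against 9404 per 100 (percentile 75.3) in the Cd8 window. In the remaining pool these stood at 316.1 and 341.1 per 100, the other way round, and its part in the local ratio was not tested.

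**Figure D3:**
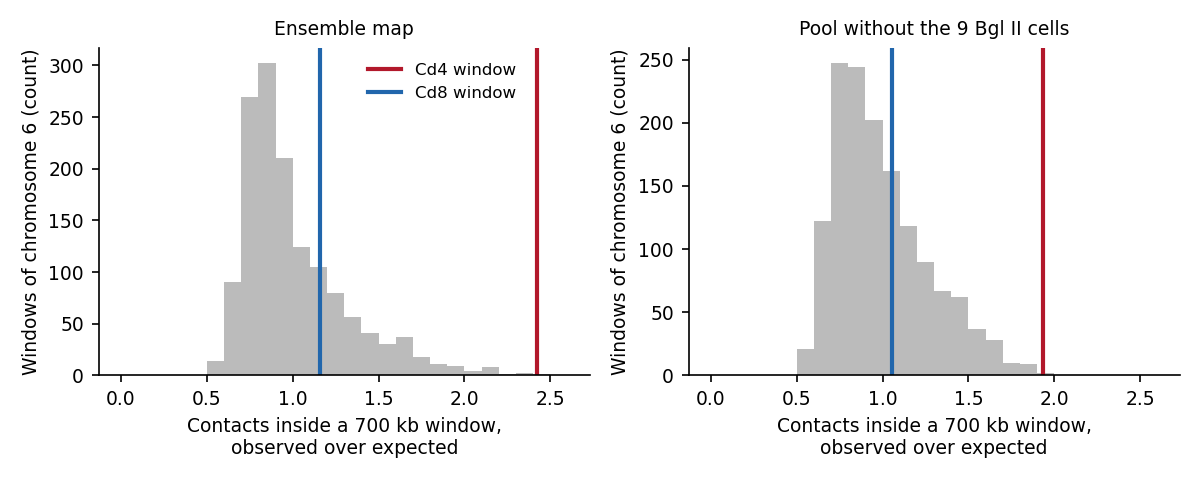
Number of 700 kb windows of chromosome 6 (grey, overlapping, 100 kb steps) by the observed over expected ratio of contacts inside them, in the ensemble (left) and the remaining pool (right); vertical lines mark the Cd4 window and the Cd8 window. The Cd4 window lies at the upper edge, at 2.42 and 1.93, and the Cd8 window within the bulk, at 1.16 and 1.05.

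Seen from the gene bins, Cd4 contacts summed over 1100 to 2000 kb were below expectation on both sides, and Cd8 contacts at these distances were near it on the right. The Cd8 gene bin may be offset from Cd8a and Cd8b1, whose positions on mm9 were not read from an annotation. From the 100 kb gene bin of Cd4 and Lag3 the ensemble ratio was 1.73 (95% Poisson interval 1.59 to 1.87) at 200 to 1000 kb to the right and 0.981 (0.851 to 1.12) to the left, the side of the nearer border. At 1100 to 2000 kb it was 0.302 (0.211 to 0.420) to the right and 0.389 (0.201 to 0.679) to the left. From the gene bin of Cd8a and Cd8b1 the ratios at 200 to 1000 kb were 1.24 (1.11 to 1.39) to the right and 1.13 (0.982 to 1.29) to the left. At 1100 to 2000 kb the Cd8 ratio was 0.981 (0.805 to 1.18) to the right and 0.471 (0.189 to 0.970) to the left, where only 5 of 10 bins could be used.

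To the right, beyond the end of its class 1 run, the Cd8 profile dropped as well. From 300 kb around the Cd8 gene bin the ratio to the right was 0.335 at 2 to 5 Mb (68 contacts) and 0.472 at 5 to 10 Mb (104 contacts), and in the remaining pool 0.275 and 0.438 (4 and 6 contacts). From the same length around the Cd4 gene bin it was 1.23 and 0.9001 in the ensemble, and 0.880 and 0.779 in the remaining pool. To the left of the Cd8 gene bin, also past its run, no drop was seen at 2 to 5 Mb. The ratio there was 1.18 (192 contacts), and 1.55 in the remaining pool (17 contacts). At 5 to 10 Mb to the left it was 0.737 and 0.456. The 300 kb viewpoint was added after the data were seen, since the position of Cd8a and Cd8b1 on mm9 could not be read from an annotation. It put the left side at 200 to 1000 kb at 1.22 for Cd4 and 0.953 for Cd8, on the other side of 1 from the gene bins' 0.981 and 1.13, so nothing rests on that side.

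**Figure D4:**
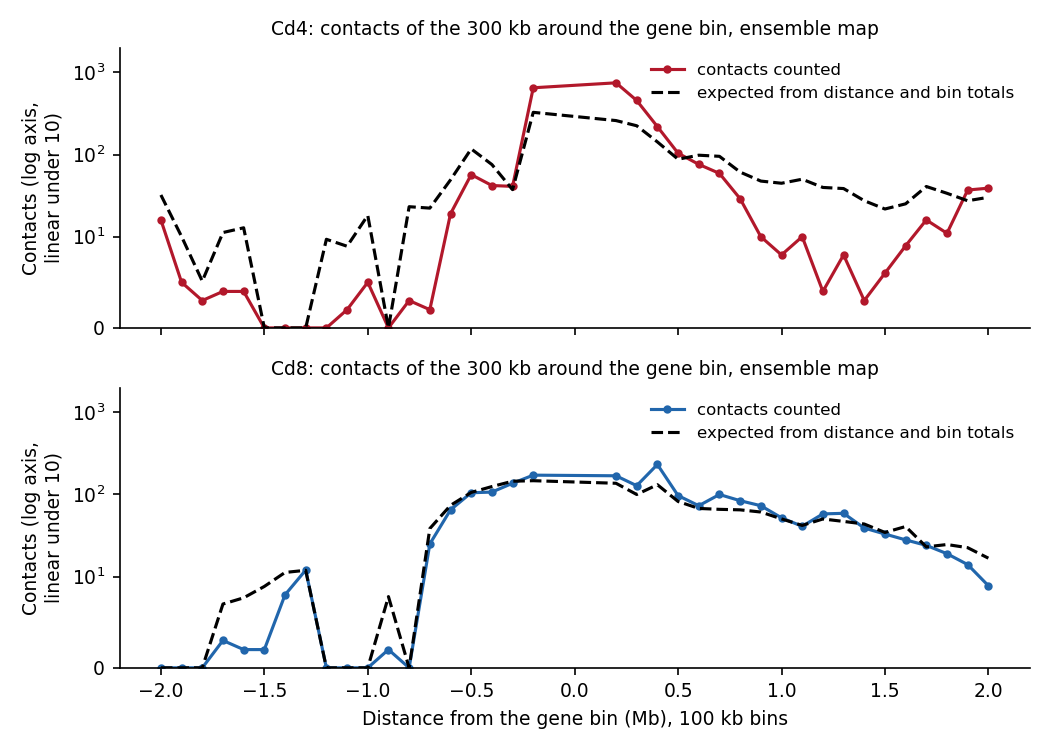
Ensemble contacts (log axis, linear under 10) of the 300 kb around the Cd4 gene bin (upper panel) and the Cd8 gene bin (lower panel) in 100 kb bins against distance in Mb; solid lines are contacts counted and dashed lines the number expected from distance and bin totals, bins nearer than 200 kb are not drawn, and points with an expected number of 0 are bins left out. On the right the Cd4 line lies above the expected line up to 500 kb and then below it up to 1800 kb, while the Cd8 line stays nearer to its expected line.

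Contacts of the Cd4 window were shorter than those of the Cd8 window. Shares here are over contact ends in a window, so a contact with both ends inside it counts with each of them. Of the Cd4 window's ensemble contact ends joined to chromosome 6, 52.2% (95% Wilson interval 51.6 to 52.8) spanned over 1 Mb, percentile 1.06 of the windows of chromosome 6, against 67.2% (66.6 to 67.9; percentile 22.0) for the Cd8 window. Those of the remaining pool were 37.1% (34.4 to 39.98) and 51.5% (48.5 to 54.5). The median distance over the contact ends on chromosome 6 was 2065 kb for Cd4 and 15453 kb for Cd8 in the ensemble, and 214.7 kb and 1210 kb in the remaining pool. Shares and medians were not corrected for the place of each window on the chromosome. They also include the contacts inside the windows, so they are not separate from the local ratios above. Intervals here and below cover counting error alone, since contacts of 1 map are not independent.

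The long-range partners of the Cd4 window were more often in class 1 than those of the Cd8 window, although both windows are in class 1. Among partners on chromosome 6 over 2 Mb away, which belong to the same matrix that gave the classes, 73.9% and 61.2% were in class 1 in the ensemble, against 50.9% for all of chromosome 6. These shares on chromosome 6 were not matched for distance or for the classes of nearby bins. Within 10 Mb, class 1 bins were more common around Cd4 than around Cd8, as given above. Partners on other chromosomes are not part of that matrix. There the shares were 63.0% (62.4 to 63.6) for the Cd4 window and 57.1% (56.4 to 57.9) for the Cd8 window, against 52.3% for chromosome 6. The remaining pool gave 77.5% (72.8 to 81.7) and 60.4% (54.1 to 66.4), against 45.8%.

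The regions of chromosome 6 over 10 Mb away with the highest ensemble ratio to the Cd4 window were also high in the remaining pool. They were chr6:47200001-47900000 (119 contacts, ratio 3.45), chr6:82800001-83500000 (396 contacts, 3.11) and chr6:113000001-113700000 (503 contacts, 3.04). There they had 8, 12 and 15 contacts, with ratios of 8.17, 4.09 and 3.42, between percentiles 97.3 and 99.96 of 1242 regions.

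For the Cd8 window the ratios were smaller and were not seen as clearly in the remaining pool. Its first 3 regions were chr6:8000001-8700000 (70 contacts, ratio 2.27), chr6:30700001-31400000 (151 contacts, 2.25) and chr6:29200001-29900000 (172 contacts, 2.12). The remaining pool had 1, 4 and 5 contacts, with ratios of 0.749, 1.68 and 1.58, between percentiles 46.2 and 83.7 of 1232 regions. All 6 regions were in class 1.

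The regions with the most similar contact profile along chromosome 6 were sought by Pearson's r over 276 bins of 500 kb in the ensemble. For Cd4 they were chr6:82800001-83500000 (r = 0.888), chr6:72100001-72800000 (r = 0.878) and chr6:98800001-99500000 (r = 0.862). For Cd8 they were chr6:82600001-83300000 (r = 0.857), chr6:88400001-89100000 (r = 0.856, 275 bins) and chr6:90900001-91600000 (r = 0.847, 275 bins). The Cd4 and Cd8 profiles correlated with each other at r = 0.766, percentile 91.5 of the regions compared with Cd4. In the sparse remaining pool that value was 0.159 and those of the 6 regions 0.224 to 0.435. The bins share the library and the class pattern of the chromosome, so these are descriptions.

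At the window length of 700 kb, trans contacts of the windows differed little in the ensemble and more in the single-cell maps. The ensemble trans share was 47.2% (46.8 to 47.6) for the Cd4 window and 46.0% (45.5 to 46.5) for the Cd8 window, both below the 49.4% of chromosome 6. In the remaining pool it was 22.7% (20.6 to 24.9; percentile 83.9) for Cd4 and 18.2% (16.2 to 20.4; percentile 52.4) for Cd8, against 18.3% for chromosome 6. The Cd4 window was therefore below the chromosome's mean in the ensemble and above it in the remaining pool.

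The partner chromosomes differed between the maps. In the ensemble the Cd4 window met chromosomes 7, 2 and 8 most above the mean of chromosome 6, by ratios of 1.09, 1.08 and 1.08, and the Cd8 window chromosomes 19, 13 and 11, by 1.08, 1.06 and 1.06. In the remaining pool the first 3 were others for each window, chromosomes 9, 17 and 18 for Cd4 (1.57, 1.48 and 1.48) and 17, 10 and 12 for Cd8 (1.67, 1.59 and 1.44), on 17 to 29 contact ends each.

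In single cells the Cd4 window again had the larger trans share, but the difference did not pass the test. Of the contact ends of the 9 Bgl II cells, 43 of 117 in the Cd4 window (36.8%) and 24 of 110 in the Cd8 window (21.8%) joined another chromosome. The trans ends of cells 1, 2, 3, 4, 5, 6, 7, 9 and 10 numbered 12, 4, 8, 5, 4, 5, 2, 2 and 1 in the Cd4 window, and 1, 4, 3, 2, 6, 3, 2, 2 and 1 in the Cd8 window. As shares of each cell's ends they ranged from 12.5% to 70.6% (mean 36.2% ± 16.8, SD, n = 9) for Cd4 and from 5% to 42.9% (24.6% ± 13.5, SD, n = 9) for Cd8, and the ranges overlap. The difference of 14.9 points had p = 0.0391 and an adjusted p of 0.0651 (exact permutation test, two-sided, windows swapped within cells, Benjamini-Hochberg over 5 comparisons). No p under 0.00391 was possible in this exact permutation test, and cell 2, with equal counts in both windows, added nothing to it. The Cd4 share was higher in 6 cells, lower in 2 and equal in 1, and without cell 1 the difference was 5.44 points (adjusted p = 0.156, exact permutation test). Without cell 5 it was 18.8 points (adjusted p = 0.0391, exact permutation test), past the threshold of 0.05, and with windows of 1.5 Mb it was 8.41 points (adjusted p = 0.697). Over 13 alternatives the adjusted p ranged from 0.0391 to 0.697, and 3 passed.

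The trans contacts behind these counts came in groups. In cell 1, whose trans share over the whole map was the lowest (6.96%), 12 of 17 Cd4 ends were trans, and 3 of them met chromosome 10 between 94310024 and 94758584, 2 met the same chromosome at 58824665 and 59219250, and 3 met chromosome 3 between 141922873 and 142248620. In cell 3, 7 of the 8 trans ends of the Cd4 window met chromosome 2, 6 of them between 154658305 and 155841490. In cell 5, 4 of the 6 trans ends of the Cd8 window met chromosome 8, at positions from 83173458 to 116880436. Ends of 1 cell that meet the same place are not independent observations of the window.

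**Figure D5:**
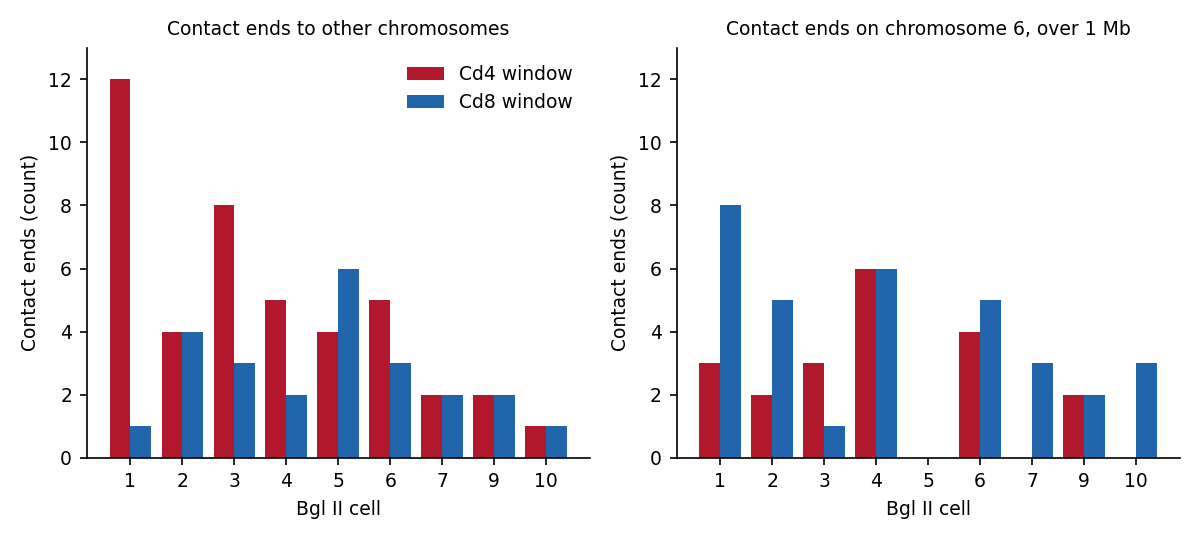
Contact ends (count) of the Cd4 window and the Cd8 window in each of the 9 Bgl II cells, joined to other chromosomes (left) and to places on chromosome 6 over 1 Mb away (right). Cell 1 has the most trans ends of the Cd4 window, 12, against 1 in its Cd8 window, and cells 5, 7 and 10 have no Cd4 contact over 1 Mb on chromosome 6.

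The distance contrast of the large maps had the same direction in the cells and did not pass either. Of contact ends on chromosome 6, 20 of 74 in the Cd4 window (27.0%) and 33 of 86 in the Cd8 window (38.4%) spanned over 1 Mb. By cell they numbered 3, 2, 3, 6, 0, 4, 0, 2 and 0 for Cd4, and 8, 5, 1, 6, 0, 5, 3, 2 and 3 for Cd8, in the cell order given above. Cells 7 and 10 had such contacts in the Cd8 window alone. There a Cd4 count of 0 has a rough limit of 75% and 42.9% (3 counts of the total), and upper Wilson limits of 49.0% and 35.4%. In cell 5 neither window had one, with rough limits of 25% and 23.1% and upper Wilson limits of 24.2% and 22.8%. The difference was -11.3 points (p = 0.0391, adjusted p = 0.0651, exact permutation test, two-sided), with the Cd4 share lower in 5 cells, higher in 3 and equal in 1. With windows of 1.5 Mb it was -0.0609 points (adjusted p = 0.996, exact permutation test), and with a limit of 5 Mb in place of 1 Mb -15.8 points (adjusted p = 0.0391).

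Trans partners in class 1 numbered 35 of 43 for the Cd4 window (81.4%) and 14 of 24 for the Cd8 window (58.3%). The difference of 23.1 points had p = 0.0156 and an adjusted p of 0.0651 (exact permutation test, two-sided), with the Cd4 share higher in 6 cells, lower in 1 and equal in 2. Over 15 alternatives the adjusted p of this test ranged from 0.0391 to 0.625, and 4 passed. Of these, 1 had classes called without balancing, which follow the chromosomes and not compartments. Another 1 left out contacts under 20 kb, which changes no trans contact, and passed only because other tests of the family changed. Without cell 5 the difference was 26.5 points (p = 0.0156, adjusted p = 0.0391, exact permutation test). The unadjusted p was the same as in the main setting, so this alternative too passed only because other tests of the family changed. With windows of 1.5 Mb the difference was 18.7 points (adjusted p = 0.625, exact permutation test). For partners on chromosome 6 over 2 Mb away the counts were 15 of 20 (75%) and 20 of 32 (62.5%), a difference of 12.5 points (adjusted p = 0.293, exact permutation test). Contact ends per 100 fragment ends were 25.1 in the Cd4 window and 28.4 in the Cd8 window, a log2 ratio of -0.18 (adjusted p = 0.383, exact permutation test). Of the 5 comparisons 0 passed after adjustment and 3 had an unadjusted p under 0.05.

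The last question was whether the active and the silenced coreceptor meet more often than other places 53.5 Mb apart on chromosome 6. The ensemble held 122 contacts between the windows, against 79.4 expected from the far contact ends of 923 pairs of windows at that separation, a ratio of 1.54 (95% Poisson interval 1.28 to 1.83). The pair stood at percentile 85.8. Among the 145 pairs with both windows in class 1, as these are, the ratio was 1.18 (percentile 83.1).

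The remaining pool held 2 contacts between the windows, for 1.63 expected, a ratio of 1.23 (0.149 to 4.44; percentile 65.6), at which depth no difference from other pairs was detectable. With windows of 1 Mb it held 11 for 3.74 expected, a ratio of 2.94 (percentile 95.6), and the ensemble then gave 1.58 (percentile 88.5). With windows of 500 kb the ratio in the remaining pool was 2.64 (percentile 88.6). Among pairs with both windows in class 1 it was 0.726 (percentile 38.3). Against the number expected from distance and bin totals it was 0.908, and 1.81 in the ensemble. In single cells 1 contact joined the windows, between positions 71258948 and 124527253 in cell 6, and 0 did in each of the other 9 cells. The number expected over the 9 Bgl II cells was 0.0745, so that a count of 0 was the usual outcome at this depth. The nearest miss was in cell 1, where 72178250 met 125042364.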

How the data were processed

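The authors deposited lists of distinct contacts, with a chromosome and a position in bp for both ends of each contact, per the file headers. Positions are on mm9, per the submitters' processing notes; which aligner and read filters were used is not given in the sources used here. Repeated ligations of a pair of ends count once. In cell 8, 3 contacts outside chromosomes 1 to 19 and X were left out. The windows, their genes and the lists were chosen with earlier results of these data known.

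Scripts ran in Python 3.11.15, using pandas 2.3.3 for tables, numpy 2.4.6 and scipy 1.17.1 for computation, and matplotlib 3.10.9 for plots. Ensemble maps were balanced over 50 steps, and bins under 0.2 of the median row sum were left out. Expected contacts were the product of both bins' balancing factors and the mean of chromosome 6 at that distance. Borders were minima of insulation in 50 kb bins with a 500 kb window and a prominence of at least 0.1. Positions without a value were interpolated linearly before minima were sought. The eigenvector's sign was set by the density of fragment ends. Percentiles of shares and of contact ends per 100 fragment ends are over overlapping windows of chromosome 6 at 100 kb steps with at least 100 fragment ends. Those of the local ratio are over such windows with few left-out bins, without that limit on fragment ends. Other percentiles are over the bins, borders, regions or pairs named with them. Between cells, counts were summed and window labels swapped within cells over all 512 assignments (exact permutation test, two-sided, threshold 0.05, Benjamini-Hochberg over 5 comparisons). Shares have 95% Wilson intervals and counts 95% Poisson intervals. A rough share limit for a count of 0 is 3 counts of the total, which is too wide at small totals, so the upper Wilson limit is given beside it. The procedures were tested on simulated maps.

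No mm9 annotation was used here. Each gene bin, 100 kb long and starting 300 kb into its window, follows the stated gene positions, which for Cd8a and Cd8b1 may be those of a later build, but the windows hold the genes in either reading. Contacts of a fixed list of coreceptor regulators (Zbtb7b, Runx1, Runx3, Satb1, Gata3, Tox, Patz1, Ikzf1, Bcl11b and Lck) were not analysed here, since they need positions, and the promoters of Cd4, Lag3 and Cd8b1 were not used here. The named regions are, for each window, the 3 regions over 10 Mb away with the highest ensemble ratio, the 3 with the most similar profile and the 3 partner chromosomes furthest above the mean of chromosome 6. Alternatives changed the cells, the window length, the distances, the bins, the class calls and the balancing.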

Additional observations from a re-analysis of the deposited data

Results flagged for a closer look

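In 12 sets of per-cell values, 2 held a cell that stood apart from the others by more than Dixon's 95% limit, and chance alone flags about 1 set in 20. The first was cell 1, in which the trans share of the Cd4 window exceeded that of the Cd8 window by 65.6 points. The next largest difference was 13.3 points, and the lowest was -6.58 points. The second was cell 10, in which 0% of the Cd4 window's trans partners were in class 1, against 60% in the next lowest cell, but this share rests on 1 trans contact end.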

How the results depend on the processing

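With the Dpn II cell added, the trans share difference between the windows was 16.97 points (adjusted p = 0.0488) and that of class 1 trans partners 22.9 points (adjusted p = 0.0391), both past the threshold (exact permutation tests). Leaving out contacts under 20 kb gave 19.7 and 23.1 points, also past it. Windows of 300 kb gave 21.2 and 30 points (adjusted p = 0.273 and 0.234, exact permutation tests), and windows of 1.5 Mb 8.41 and 18.7 points (adjusted p = 0.697 and 0.625), not past it. A limit of 5 Mb gave -15.8 points for long contacts on chromosome 6. Classes without balancing gave 49.9 points for class 1 trans partners and 0 for class 1 partners on chromosome 6, but they split bins largely by chromosome (100% of bins on chromosomes 1, 3, 6 and others, 0% on 4, 7, 8 and 14), so this setting tests nothing about compartments. Leaving out each cell gave 5.44 (without cell 1) to 18.8 points for the trans share, -12.9 to -8.58 for long contacts, 17.05 to 26.6 for class 1 trans partners, 5.56 (without cell 9) to 20.3 (without cell 4) for class 1 partners on chromosome 6, and log2 ratios of -0.34 (without cell 3) to -0.12 (without cells 1, 5 or 7) for contact ends. The test between the windows is itself paired within cells. No paired analysis was possible because the labels' groups (ensemble, Bgl II cells and Dpn II cell) share no sample.

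Windows of 300 kb and 1.5 Mb and leaving out contacts under 20 kb gave ensemble trans shares of 48.5%, 46.2% and 50.02% for Cd4 and 45.3%, 47.9% and 47.5% for Cd8, so that with 1.5 Mb Cd4 was the lower. In the pool they gave 29.3%, 20.97% and 28.4% for Cd4 (main 23.7%), and 18.3%, 18.8% and 20.7% for Cd8 (main 18.5%). In the remaining pool they gave 28.1%, 20.4% and 27.1% for Cd4, and 17.9%, 18.7% and 20.3% for Cd8. The windows were thus closest there with 1.5 Mb. The compartment percentiles were 92.2 and 93.8 for Cd4 and 83.6 and 88.1 for Cd8 in bins of 500 and 250 kb. Without balancing they were 54.5 and 45.5, where 100% of the bins of chromosome 6 had the same sign. For insulation the lowest value in or near each window was taken, which need not lie at the borders of the domain. With windows of 250 kb and 1 Mb, bins of 25 and 100 kb, and no balancing it was -0.479, -0.990, -0.883, -0.904 and -0.904 for Cd4. For Cd8 it was -0.275, -0.160, -0.200, -0.263 and 0.4999, the last reversed in sign, and the cause was not tested. The local ratio was 2.5004 for Cd4 from 50 kb on, and 4.55 for Cd4 and 1.42 for Cd8 without balancing. The 300 kb viewpoint gave 1.22 for Cd4 and 0.953 for Cd8 on the left. In the ensemble, contacts between the windows were 3.39 times expected without division by the windows' ends and 1.18 times among class 1 pairs. The remaining pool and the cells limit the contacts between windows to single counts.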

Other observations

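The Dpn II cell, left out of the main tests above, held 8 contact ends in the Cd4 window and 2 in the Cd8 window. Of the Cd4 ends 5 were trans, 3 to chromosome 1 (133106289, 156935685 and 158639094) and 2 to chromosome X, and 4 of the 5 partners were in class 1. Its 3 other Cd4 contacts joined chromosome 6 at 113279443, 98949425 and 37553731, all in class 1. The first of these lies in chr6:113000001-113700000 and the second in chr6:98800001-99500000, regions named above for their contacts or profile with the Cd4 window in the ensemble. The Bgl II cells summed had 12 Cd4 ends joined to chromosome 6 over 10 Mb away. Of these only that of cell 1 at 72178250 lies in a region named for Cd4, chr6:72100001-72800000. How often such matches arise by position alone was not tested. Both Cd8 ends of the cell joined class 2 places on chromosome 6, at 4545345 and 137551820. With 1 cell these are single observations.

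Coverage within the gene bins was uneven. The 64 Bgl II fragment ends of the Cd4 gene bin held 5 to 317 ensemble contact ends each (median 113), and the 52 of the Cd8 gene bin 13 to 219 (median 91.5).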
